A study of Macrostomum lignano with 16 samples.

Results

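A set of 67 transcripts of the flatworm Macrostomum lignano separated every worm library that had any company, even for a single day, from every library of worms that had none. They were selected on their measured levels out of 76437 transcripts in the table, of which 23788 averaged at least 4 CPM (estimated reads scaled to a common library total, here a total without the most abundant transcript, RNA815_80.1). A transcript was taken when all 12 libraries of worms with company lay above, or all lay below, all 4 libraries of isolated worms. The mean of the worms joined for the last day also had to be at least 1.3 times or at most 0.77 times the isolated mean, and at least 1 joined library had to reach the range of the 8 libraries from constant company or pass beyond it. Of the 67 transcripts, 56 were higher and 11 were lower in company.

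Macrostomum lignano is a free-living hermaphrodite that makes sperm and eggs at the same time and copulates often and reciprocally. A worm kept alone has no partner with which to exchange sperm. How much such a worm invests in testes and ovaries is known to shift with the number of partners, because sperm of several mates compete in larger groups. The table names transcripts by assembly identifier only, and no gene name or role can be given to any of the 67.

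All worms were adults of strain DV1, aged 66 to 69 days, raised in artificial sea water with diatoms as food. Octet worms had lived for 64 days in groups of 8, paired worms with 1 lasting partner, joined worms alone until they were put together by 2 for the final 24 h, and isolated worms alone throughout. Each group had 4 libraries, and each library was made from a pool of whole worms, so that errors describe pools and not individual worms, and the number of worms in a pool is not given in the sources used here. In whole worms, fewer cells of a type and less RNA per cell cannot be told apart.

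The 16 libraries held 7302416 to 10112451 estimated reads. RNA815_80.1 took 13.4% ± 3.86 of the reads in octet, 17.3% ± 3.04 in paired, 18.2% ± 3.43 in joined and 19.3% ± 3.13 in isolated worms (SD, n = 4 each), and results with it kept in the total are given with the other scalings. On the CPM scale that leaves it out, the median log2 ratio to isolated worms over the 23788 transcripts was -0.13 in octet, -0.01 in paired and 0.06 in joined worms. Octet levels therefore sit slightly low on this scale and joined levels slightly high.

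Full separation from the isolated libraries was rare in either direction. Among the 23788 transcripts, 76 (0.319%) lay above all isolated libraries in all 12 company libraries, and 27 (0.114%) lay below. Of these 103 transcripts, 25 missed the ratio of joined to isolated means and a further 11 had no joined library within the range of constant company, which left the 67. These counts describe the choice and test nothing, since the same libraries made it.

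**Figure D1:**
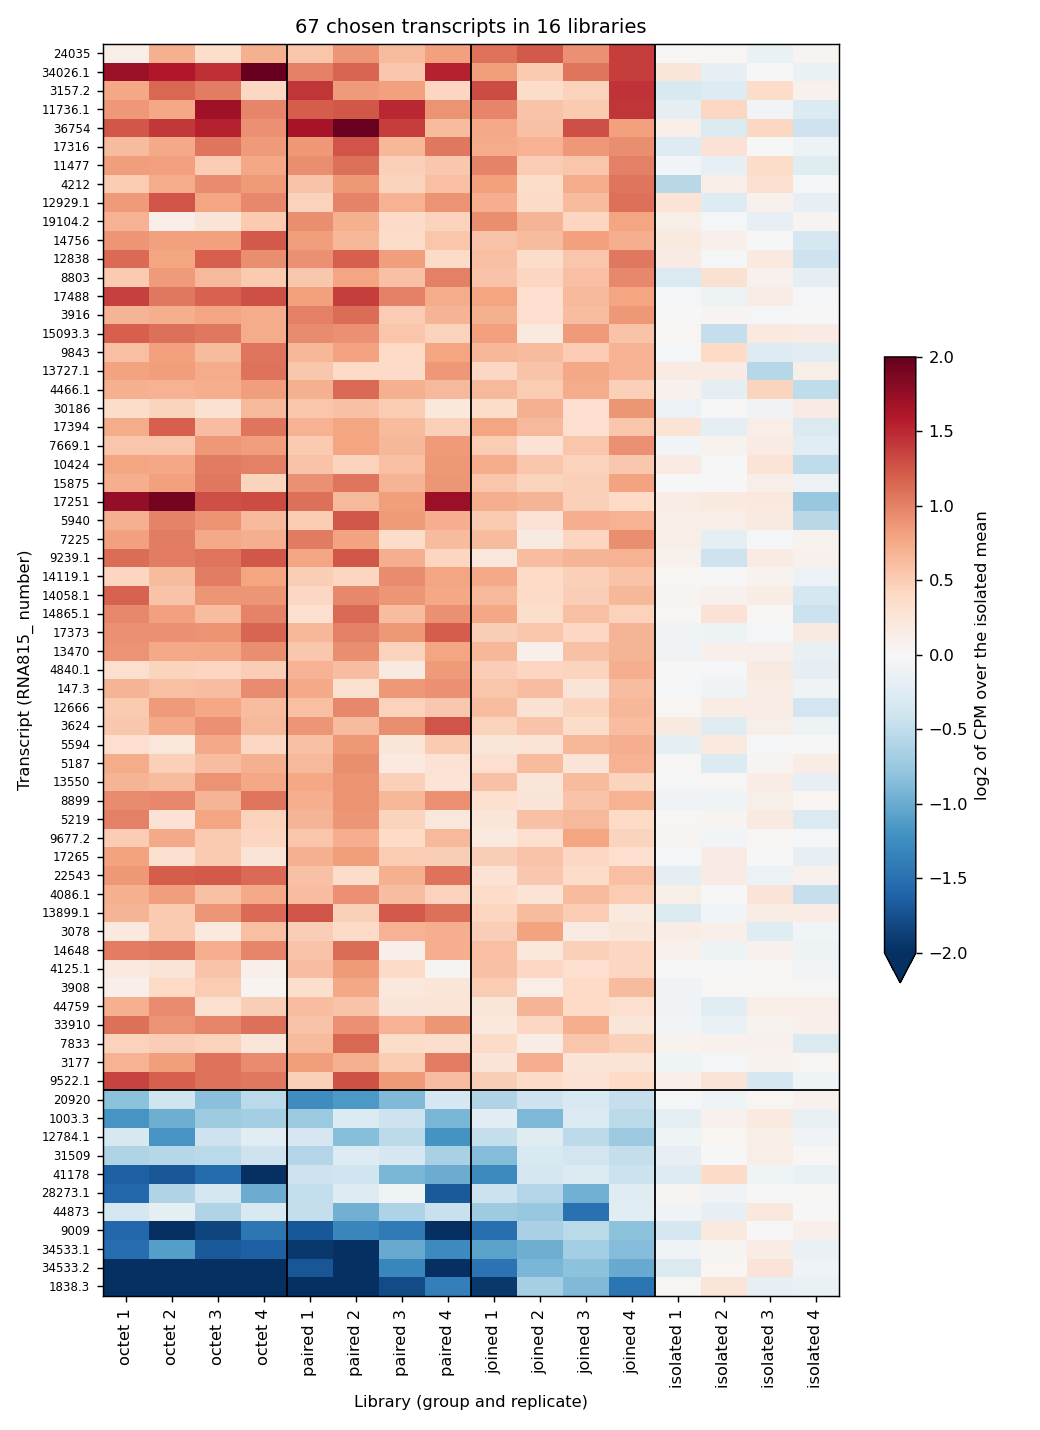
Log2 of the CPM value over the isolated mean for the 67 transcripts, running down the page, in 16 libraries, running across, with the 56 higher transcripts above the 11 lower ones and each set ordered by the ratio of joined to isolated means. In the joined libraries the colour is often paler than in the octet libraries, as in RNA815_17251 and RNA815_9522.1, and deeper in RNA815_24035; the colour scale ends at 2 and -2.

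In the median higher transcript the ratio to the isolated mean was 1.74 in octet, 1.66 in paired and 1.48 in joined worms. Joined ratios ran from 1.31 to 2.24, and only RNA815_24035 reached 2. In the median lower transcript the ratio was 0.55 in octet, 0.62 in paired and 0.69 in joined worms, with joined ratios of 0.45 to 0.74. After 24 h the joined mean had covered a median of 70.2% of the distance from the isolated mean to the mean of the 8 constant-company libraries in the higher set, with a range of 30.4% to 231%. In the lower set the median was 70.4%, with a range of 57.0% to 140%. The choice bears on these percentages, since it set conditions on the joined ratio and range. They also depend on the scale. In a limma-voom fit on TMM-scaled library sizes, higher transcripts had median log2 fold changes from isolation of 0.95 (octet), 0.72 (paired) and 0.47 (joined). Lower transcripts had -0.71, -0.68 and -0.64 in the same order. The joined median was nearer to those of constant company in the lower set, but each lower median comes from a different transcript. These fitted medians therefore do not measure how far any transcript had moved. The median percentages per transcript on the CPM scale were alike, at 70.2% and 70.4%.

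The joined libraries did not all sit alike. All 4 of them reached the range of constant company in 18 of the 56 higher and 4 of the 11 lower transcripts, and only 1 of them did so in 6 higher and 3 lower ones. The joined mean passed beyond the mean of constant company in 9 higher transcripts and in 1 lower one. Taken library by library, the median log2 shift of the higher set from the isolated mean was 0.73 to 0.84 in octet, 0.61 to 0.88 in paired, 0.43 to 0.68 in joined and -0.10 to 0.09 in isolated libraries. For the lower set it was -1.53 to -0.84 in octet, -1.19 to -0.75 in paired, -0.87 to -0.53 in joined and -0.09 to 0.11 in isolated libraries.

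Most of these transcripts were scarce. The median level over all libraries was 8.79 CPM, against 12.0 CPM among all 23788 transcripts. An average under 10 CPM was found in 29 higher and 9 lower members, and the share of all transcripts under it was not counted. No higher transcript averaged 100 CPM, a level that 6.00% of the 23788 transcripts reached. The most abundant higher one, RNA815_4125.1, averaged 38.1 CPM. One lower transcript, RNA815_34533.1, averaged 325 CPM. In the higher set the smallest read count in any library ranged from 10.9 to 172 estimated reads, so the scarcest members carry a large counting error.

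RNA815_24035 had the largest ratio of joined to isolated worms. It stood at 2.98, 4.44, 3.44 and 4.44 CPM in octet, at 3.99, 4.96, 4.21 and 4.76 CPM in paired, at 5.76, 6.32, 5.08 and 7.04 CPM in joined and at 2.76, 2.78, 2.48 and 2.80 CPM in isolated libraries. All 4 joined libraries lay above all 8 libraries of constant company, which in turn lay above the isolated ones by as little as 0.177 CPM. The joined mean was 2.24 times and the constant-company mean 1.54 times the isolated mean. The log2 fold change from isolated worms in a limma-voom fit to all transcripts was 0.60 for octet (standard error 0.22), 0.71 for paired (0.22) and 1.03 for joined worms (0.21).

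RNA815_34026.1 was highest in octet worms. Its level was 6.71, 6.22, 5.59 and 8.11 CPM in octet, 4.10, 4.59, 2.96 and 5.90 CPM in paired, 3.65, 2.92, 4.26 and 5.30 CPM in joined and 2.42, 1.83, 2.05 and 1.86 CPM in isolated libraries. Paired and joined libraries overlapped. The joined mean was 1.98 times and the constant-company mean 2.71 times the isolated mean. No other higher transcript had a wider ratio of constant company to isolation.

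RNA815_17316 had similar levels in all 3 kinds of company. It stood at 16.1, 17.6, 21.9 and 18.8 CPM in octet, at 19, 25, 16.4 and 21.6 CPM in paired, at 17.5, 16.8, 19 and 19.9 CPM in joined and at 8.73, 12.7, 10.4 and 9.75 CPM in isolated libraries. The 3 company groups overlapped, and the lowest of their libraries stood 3.39 CPM above the highest isolated one. RNA815_3916, with 36.1 ± 1.07 CPM in octet, 39.1 ± 7.54 in paired, 33.9 ± 4.96 in joined and 21.7 ± 0.60 CPM in isolated worms (SD, n = 4 each), had the widest such gap of the higher set, at 4.90 CPM.

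The next higher transcripts by joined ratio were scarce. RNA815_3157.2 averaged 6.81 ± 1.47 CPM in octet, 7.11 ± 2.11 in paired, 7.34 ± 2.73 in joined and 3.74 ± 0.84 CPM in isolated worms, a joined ratio of 1.96. Its joined libraries split into a pair at 9.23 and 10.1 CPM and a pair at 4.83 and 5.16 CPM, the lowest of which cleared isolated replicate 3 by 0.016 CPM. RNA815_11736.1 averaged 6.81 ± 2.22 CPM in octet, 7.29 ± 1.24 in paired, 5.90 ± 1.81 in joined and 3.11 ± 0.70 CPM in isolated worms. RNA815_36754 averaged 6.16 ± 1.12 CPM in octet, 7.06 ± 2.52 in paired, 4.65 ± 1.04 in joined and 2.51 ± 0.67 CPM in isolated worms. Both had joined means below the octet and paired means.

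RNA815_11477 and RNA815_4212 had joined means near those of constant company. RNA815_11477 averaged 7.40 ± 0.74 CPM in octet, 7.62 ± 1.59 in paired, 7.61 ± 1.41 in joined and 4.43 ± 0.88 CPM in isolated worms. RNA815_4212 averaged 15.7 ± 1.94 CPM in octet, 14.3 ± 1.80 in paired, 15.8 ± 3.06 in joined and 9.23 ± 2.22 CPM in isolated worms (SD, n = 4 each). Of the other abundant members, RNA815_12666 averaged 33.4 ± 3.47 CPM in octet, 32.3 ± 5.19 in paired, 29.3 ± 3.33 in joined and 20.6 ± 3.36 CPM in isolated worms. RNA815_3624 stood lower in joined worms, at 27.2 ± 2.23 CPM, than in octet (31.7 ± 3.58) and paired (36.8 ± 6.64) worms, against 19.2 ± 2.55 CPM in isolated worms. RNA815_4125.1 averaged 37.3 ± 5.62 CPM in octet, 43.3 ± 9.95 in paired, 41.4 ± 3.06 in joined and 30.5 ± 0.71 CPM in isolated worms.

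**Figure D2:**
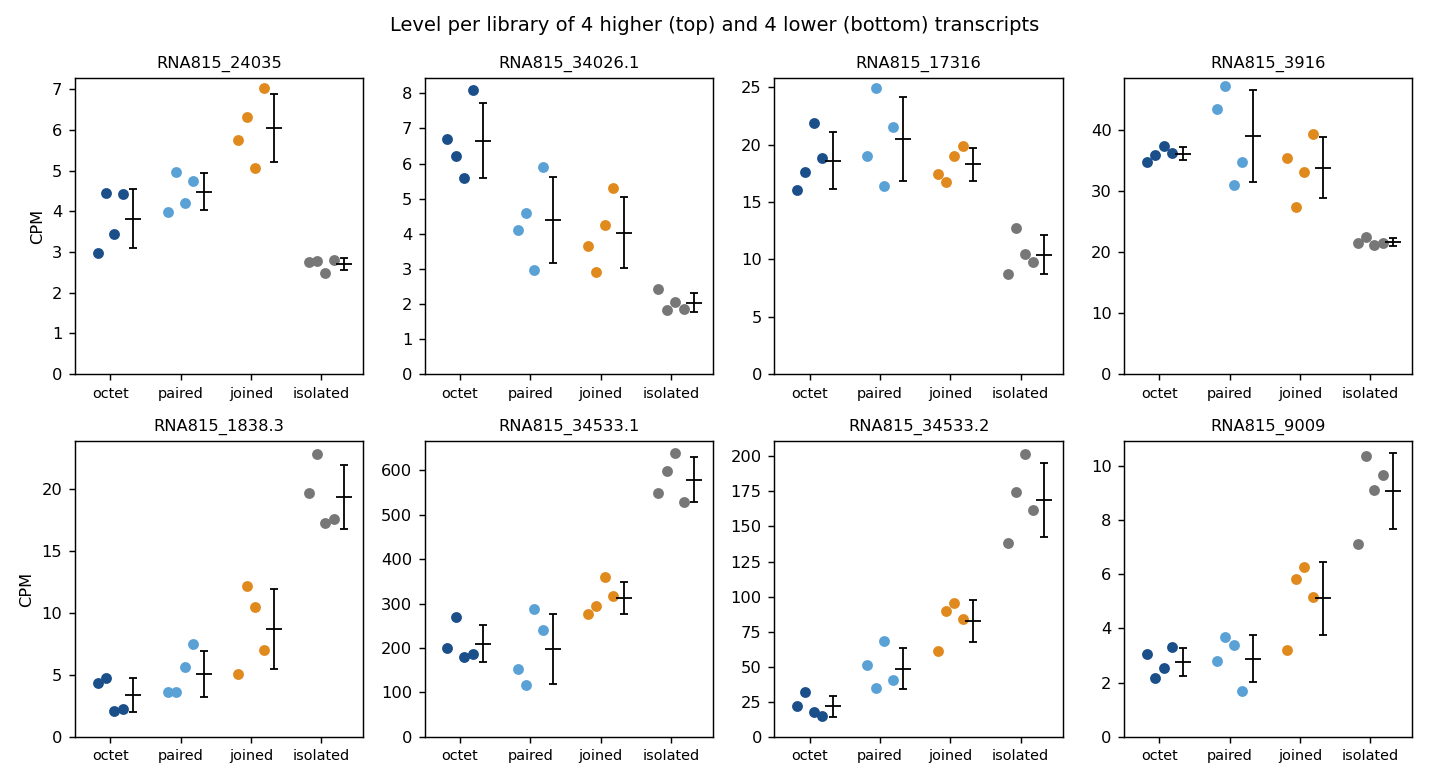
CPM in each of 4 libraries per group for 4 higher transcripts (top) and 4 lower ones (bottom); points are libraries, and the bar beside them is the mean with its SD. Joined libraries of RNA815_24035 lie above both groups of constant company, and the joined means of RNA815_34533.1 and RNA815_34533.2 lie between constant company and isolation.

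The lower set was led by RNA815_1838.3. It stood at 4.38, 4.77, 2.11 and 2.27 CPM in octet, at 3.63, 3.59, 5.6 and 7.48 CPM in paired, at 5.06, 12.2, 10.5 and 7.04 CPM in joined and at 19.7, 22.8, 17.3 and 17.6 CPM in isolated libraries. Joined replicates 1 and 4 fell within the range of constant company, and joined replicates 2 and 3 lay between that range and the isolated libraries. The joined mean was 0.45 times and the constant-company mean 0.22 times the isolated mean. Its log2 fold change from isolated worms was -2.41 in octet (standard error 0.30), -2.01 in paired (0.28) and -1.28 in joined worms (0.25).

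RNA815_34533.1 and RNA815_34533.2 share an assembly number, and RSEM, which estimated the counts, divides any reads common to transcripts between them. RNA815_34533.1 stood at 200, 270, 181 and 187 CPM in octet, at 152, 116, 287 and 240 CPM in paired, at 276, 295, 360 and 317 CPM in joined and at 549, 599, 640 and 528 CPM in isolated libraries. The isolated libraries stood apart by a wide gap, 168 CPM above the highest library of the other groups, and 1 joined library fell within the range of constant company. RNA815_34533.2 stood at 21.9, 32.2, 17.7 and 15.1 CPM in octet, at 51.4, 34.5, 68.1 and 40.5 CPM in paired, at 60.9, 89.6, 95.2 and 84.1 CPM in joined and at 138, 174, 202 and 161 CPM in isolated libraries. Its octet libraries all lay below its paired libraries, and its joined libraries lay between paired and isolated ones with 1 overlap. The joined means were 0.54 and 0.49 times the isolated means of RNA815_34533.1 and RNA815_34533.2.

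RNA815_9009 averaged 2.77 ± 0.52 CPM in octet, 2.89 ± 0.88 in paired, 5.11 ± 1.35 in joined and 9.07 ± 1.4 CPM in isolated worms (SD, n = 4 each), its means in the same order as those of RNA815_34533.2. RNA815_44873 differed from it in that its joined mean was the lowest of the 4 groups. It averaged 4.15 ± 0.48 CPM in octet, 3.48 ± 0.54 in paired, 3.22 ± 1.11 in joined and 5.31 ± 0.59 CPM in isolated worms. RNA815_41178 averaged 2.09 ± 0.45 CPM in octet, 4.53 ± 0.99 in paired, 4.95 ± 1.37 in joined and 7.13 ± 1.49 CPM in isolated worms. RNA815_31509 averaged 6.19 ± 0.36 CPM in octet, 6.54 ± 0.85 in paired, 6.37 ± 1.03 in joined and 8.96 ± 0.75 CPM in isolated worms. The remaining 4 lower transcripts, RNA815_28273.1, RNA815_12784.1, RNA815_1003.3 and RNA815_20920, had joined means of 0.69 to 0.74 times the isolated means.

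At the edge of the ratio condition values inside and outside lay close together. RNA815_9522.1, RNA815_3177 and RNA815_7833 were just inside, with joined ratios of 1.311, 1.315 and 1.316, and RNA815_147.1, RNA815_25459 and RNA815_11448 just outside, with 1.286, 1.281 and 1.273. On the lower side RNA815_20920, RNA815_1003.3 and RNA815_12784.1 were inside, with 0.738, 0.730 and 0.718, and RNA815_7423, RNA815_22377.1 and RNA815_5447 outside, with 0.783, 0.804 and 0.814. RNA815_147.1, at 139.9 ± 13.0 CPM in octet, 135 ± 7.62 in paired, 119 ± 6.49 in joined and 92.7 ± 7.84 CPM in isolated worms, shares its number with the member RNA815_147.3, at 7.76 ± 0.89 CPM in octet, 7.86 ± 1.36 in paired, 6.75 ± 0.74 in joined and 4.72 ± 0.33 CPM in isolated worms.

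Identifier numbers were shared by 26 of the 67 transcripts (38.8%), against 33.9% of the 23788 transcripts. These 26 belonged to 25 numbers, and only RNA815_34533 contributed more than 1 member. In 18 of the 25 a member was the most abundant transcript of its number. RNA815_1838.3 was a minor transcript of its number: RNA815_1838.2, at 813 ± 257 CPM in octet, 723 ± 224 in paired, 651 ± 51.5 in joined and 925 ± 91.1 CPM in isolated worms, did not separate the 12 company libraries from the isolated ones. Transcripts of a number are not taken as independent measurements, because RSEM divides any reads common to them by estimation. Whether they share sequence was not examined.

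The choice set no condition between octet and paired worms, and their contrast was tested by limma-voom over 40265 transcripts. It is not wholly free of the choice: on the CPM scale used there octet levels sit below paired ones, so a higher transcript had to shift further in octet than in paired worms to be chosen, and a lower one less far. All 67 transcripts were among them. One of the 67 (1.49%) passed an adjusted p of 0.05 where 580 transcripts of the whole table (1.44%) did. With the replicate number as a block the calls were 5 of the 67 (7.46%) and 2388 in all (5.93%), with a quality weight per library 13 (19.4%) and 5421 (13.5%), and in a fit to the 8 octet and paired libraries 0 and 8. Leaving out 1 library moved the whole count to between 23 (without octet replicate 1) and 3998 (without paired replicate 4), by over 1.5 times for every library except joined replicate 4, and the count among the 67 to between 0 and 7. At an unadjusted p under 0.05 there were 17 of the 67 (25.4%), against 8032 transcripts (19.9%) in all. The median 95% interval of a member, without adjustment, reached 0.36 log2 units to either side. To pass the adjusted p a difference mostly had to be larger than that. RNA815_34026.1, at 0.81, and RNA815_41178, at -0.94, did not pass (adjusted p = 0.0639 and 0.0824, limma-voom).

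The called transcript was RNA815_34533.2, at 21.7 ± 7.52 CPM in octet and 48.6 ± 14.7 CPM in paired libraries, with SDs over 4 libraries each. Its log2 fold change was -1.02 with a standard error of 0.23 and an adjusted p of 0.0326 (limma-voom, Benjamini-Hochberg), and no octet library overlapped a paired one. Over the alternatives in which it was fitted by itself its log2 fold change lay between -1.21 and -0.84, and its adjusted p between 0.00505 and 0.128. With octet replicate 1 left out it was 0.119, and with octet replicate 4 left out 0.128. With paired replicate 1 left out it was 0.12, with paired replicate 3 left out 0.0756, and in a fit to the 8 octet and paired libraries alone 0.0970. RNA815_34533.1 showed a log2 difference of 0.31 between octet and paired worms, with a 95% interval of -0.14 to 0.75, and did not pass the test. The summed level of both was 231 ± 48.6 CPM in octet and 247 ± 89.7 CPM in paired worms, and on the TMM scale of the fit to summed transcripts the log2 difference was 0.12 with an adjusted p of 0.771 (limma-voom).

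The share of RNA815_34533.2 in the reads of the pair was examined after these values were seen. It was 9.84%, 10.6%, 8.94% and 7.44% in octet, 25.3%, 23.0%, 19.2% and 14.5% in paired, 18.1%, 23.3%, 20.9% and 21.0% in joined and 20.1%, 22.5%, 24.0% and 23.4% in isolated libraries. All octet libraries stood below all 12 others, which overlapped. The octet mean was 11.3 percentage points below the paired mean. An exact permutation test of this difference gave p = 0.0286, the smallest p it can give with these libraries. It supports nothing, since RNA815_34533.2 was singled out for its low octet levels.

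**Figure D3:**
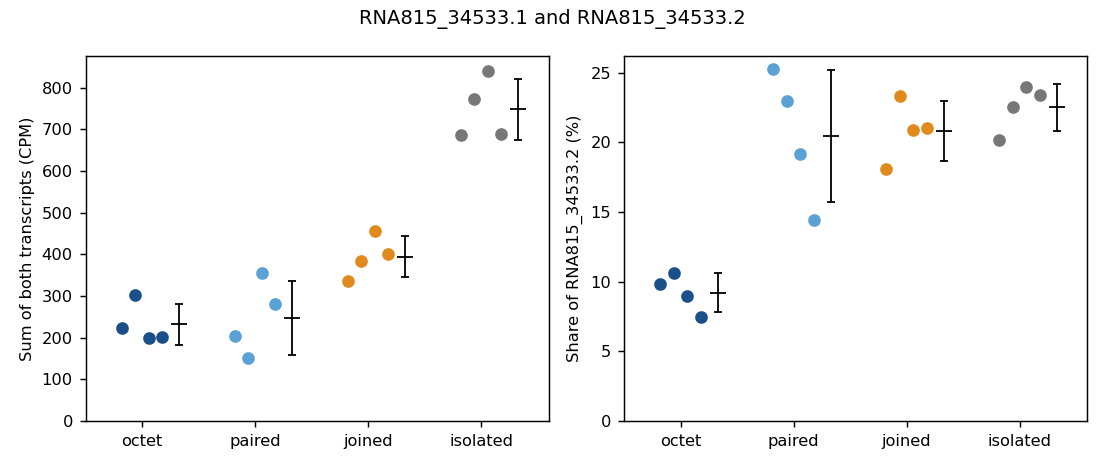
Summed CPM of RNA815_34533.1 and RNA815_34533.2 (left) and the percentage of their reads given to RNA815_34533.2 (right), per library; bars are the group mean with its SD. The sum averages 231 in octet, 247 in paired, 394 in joined and 748 CPM in isolated worms, and the share is 9.21% in octet worms against 20.5% in paired, 20.8% in joined and 22.5% in isolated worms.

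How many of the higher transcripts had the higher level in octet worms depended on the scale, and the choice bears on it. The fitted log2 difference, on the TMM scale, was above 0 in 48 of the 56, with a median of 0.22, against a median of 0.00 and 50.2% above 0 among all 40265 transcripts. With upper-quartile factors 45 of the 56 were above 0. On the CPM scale used to choose them, where octet levels sit low, 32 of the 56 had the higher mean in octet worms. This held for 37.2% of the 23788 transcripts. The median log2 ratio was 0.06, against -0.11 over the 23788 transcripts. On either scale the median of the higher set lay above that of all transcripts. The choice asked for a larger shift of octet levels, and its part in this excess was not tested. The excess therefore supports nothing. None of the 56 passed the test on its own at an adjusted p of 0.05 (limma-voom). The nearest were RNA815_34026.1, with a log2 difference of 0.81 (95% interval 0.35 to 1.28, adjusted p = 0.0639), RNA815_22543, at 0.60 (0.25 to 0.94, adjusted p = 0.0706), and RNA815_9522.1, at 0.53 (0.21 to 0.85, adjusted p = 0.0788, limma-voom for each). RNA815_22543 was named after its value was seen. In the lower set 6 of 11 fitted differences were above 0, and 4 of 11 on the CPM scale.

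**Figure D4:**
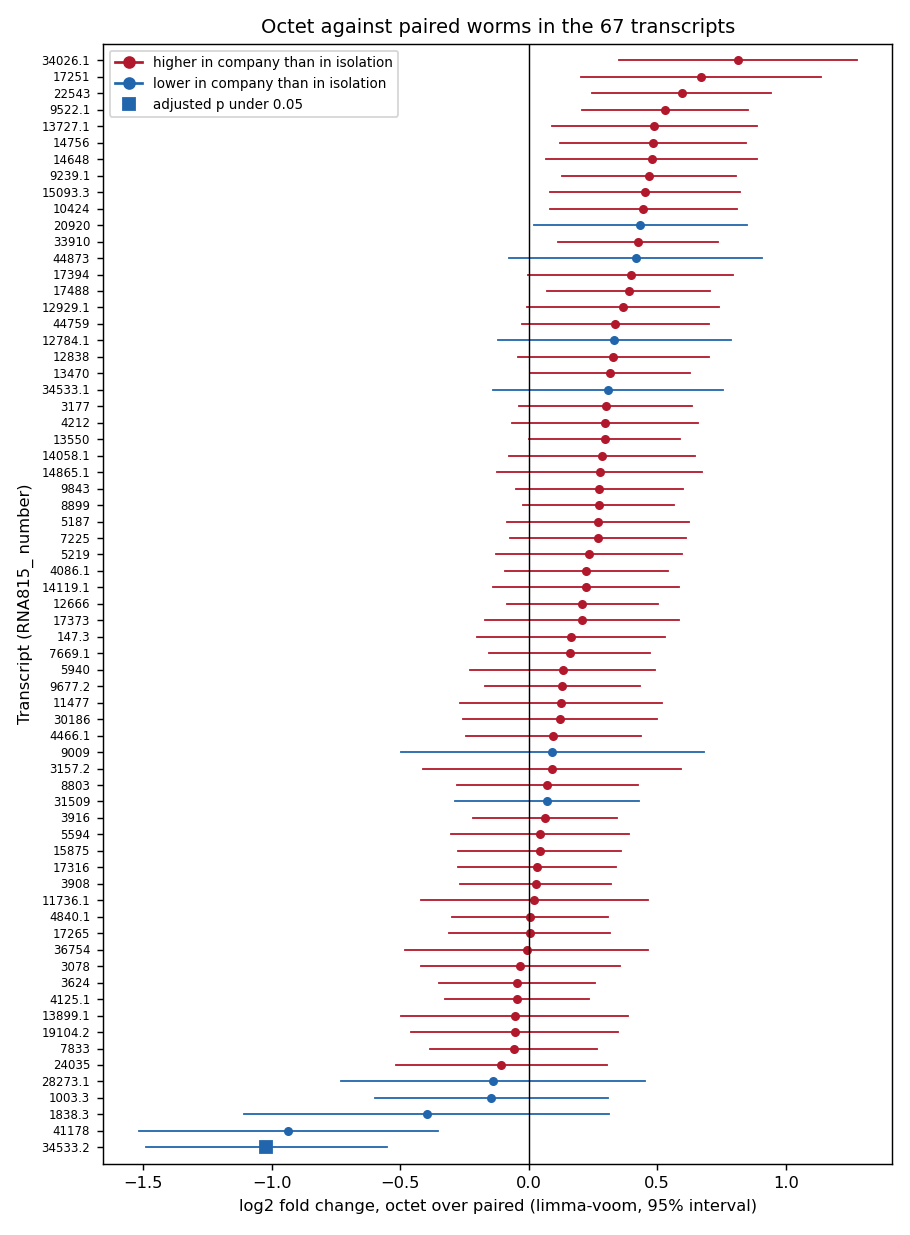
Log2 fold change of octet over paired worms for each of the 67 transcripts with its 95% interval (limma-voom), ordered by size; red marks transcripts higher and blue those lower in company than in isolation. The square is RNA815_34533.2, the 1 transcript of the 67 with an adjusted p under 0.05. To the right of 0 lie 48 of the 56 red and 6 of the 11 blue points, against 50.2% of all 40265 transcripts. On the CPM scale of the choice the counts were 32 and 4, against 37.2% of the 23788 transcripts.

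The contrast of joined with isolated worms was part of the choice and was not tested for the 67. Over the 40265 transcripts it gave 0 calls (0%) in limma-voom, where the smallest adjusted p was 0.739 and 2371 transcripts (5.89%) had an unadjusted p under 0.05. Limma-trend also gave 0 calls, with 2312 transcripts at an unadjusted p under 0.05.

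Libraries that took no part in a choice give a reading of the conditions that the choice does not fix, though not of the members themselves. The same conditions were applied 4 times to 14 libraries, each time without the joined and the isolated library of 1 replicate number, and the 2 libraries left out were then compared. Of the transcripts chosen as higher, the left-out joined library exceeded the left-out isolated one in 71 of 112 (63.4%) for replicate 1, 87 of 155 (56.1%) for replicate 2, 105 of 132 (79.5%) for replicate 3 and 66 of 80 (82.5%) for replicate 4. Over all transcripts that averaged at least 4 CPM the same order was found in 53.5%, 60.0%, 55.6% and 56.1%. For replicate 2 the share among the chosen transcripts was below that among all transcripts, and in the other 3 cases above it. Of these higher choices 54, 50, 51 and 49, for replicates 1 to 4, were also chosen with no library left out. Such transcripts lie on the chosen side by that choice, so the shares are no check of them.

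Of the transcripts chosen as lower, the left-out joined library was below the left-out isolated one in 15 of 22 (68.2%), 18 of 26 (69.2%), 17 of 30 (56.7%) and 19 of 43 (44.2%) for replicates 1 to 4. The shares over all transcripts were 46.5%, 40.0%, 44.4% and 43.9%. Of the lower choices 8, 10, 11 and 10 were also chosen with no library left out, and lie on the chosen side by that choice. The median log2 ratio of the left-out joined to the left-out isolated library was 0.26, 0.03, 0.27 and 0.58 for the higher choices and -0.19, -0.23, -0.14 and 0.09 for the lower ones. Transcripts in 1 library are not independent of each other, and no test was made of these shares. With 14 libraries the conditions are looser, and 134, 181, 162 and 123 transcripts met them in all, for replicates 1 to 4.

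**Figure D5:**
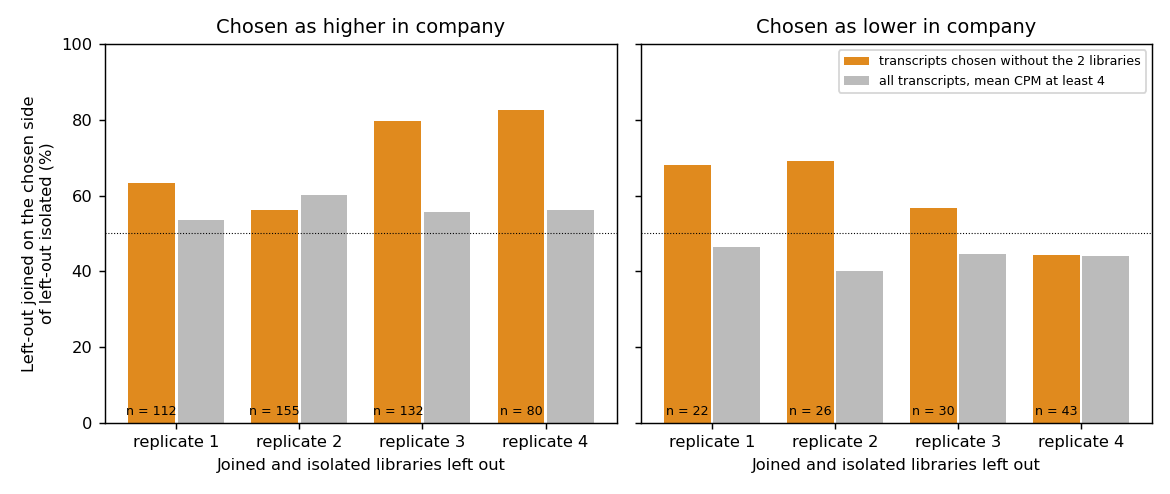
Percentage of transcripts whose left-out joined library lay on the chosen side of the left-out isolated library, for transcripts chosen without those 2 libraries (orange, with their number) and for all transcripts of at least 4 CPM (grey); the left panel holds transcripts chosen as higher and the right panel those chosen as lower in company. Orange exceeds grey in 3 of 4 cases on the left, and on the right by little for replicate 4, at 44.2% against 43.9%.

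Membership depended on how libraries were scaled. With CPM on the whole column total, 40 of the 67 still met every condition, with TMM-scaled library sizes 26 and with upper-quartile-scaled sizes 24. Full separation was lost in 19, 26 and 27 transcripts. The direction of the joined mean against the isolated mean held in all 67 under these 3 scalings, but the ratio condition left little room for another outcome. With TMM the lowest joined ratio of a higher member was still 1.24. Under all 3 scalings 16 higher and 5 lower transcripts were kept. They included RNA815_17316, RNA815_3916 and RNA815_11736.1 among the higher ones, and RNA815_34533.1, RNA815_34533.2, RNA815_1838.3, RNA815_9009 and RNA815_20920 among the lower ones. RNA815_24035 was kept under none of them. The excess of higher over lower members was 56 to 11 on the scale used here, 47 to 5 on the whole column total, 29 to 9 with TMM and 23 to 7 with upper-quartile scaling.

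Pools also varied within groups. Deviations from the group means, taken over the 16 libraries on the log2 CPM scale, had a mean correlation of 0.12 between higher members, 0.06 between lower members and -0.03 between members of opposite direction. Over all 23788 transcripts the mean was 0.02. All points come from the same 16 libraries and share their depth, so these values are descriptions.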

How the data were processed

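RNA from pools of whole worms was sequenced as single-end reads of 100 bp, per the labels. Bowtie 0.12.7 and RSEM 1.1.19 are named in the submitters' processing notes, and the file header names the assembly MLRNA110815. The values deposited by the authors are estimated counts per transcript, not scaled for depth and other than whole numbers in 23.8% of cells. Each column was assigned by the header given in its library's label.

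The members, the lists and the tests were chosen with earlier results of these data known. For the choice, counts were divided by the column total without RNA815_80.1. For tests, counts were rounded and transcripts kept with 1.26 CPM (10 reads in the median library) in at least 4 libraries and a sum of at least 15. Library sizes were scaled by TMM (trims of 30% and 5%). A limma-voom model with 4 groups was fitted to all 16 libraries (limma 3.58.1, R 4.3.3, pseudocount 0.5), with two-sided tests and Benjamini-Hochberg adjustment over 40265 transcripts. Contrasts used in the choice are given as fold changes and standard errors only. The table writes decimals with commas and was treated as estimates, so no count model was fitted. The scripts were tested on simulated data. The series' design calls the libraries independent replicate pools. The p-values of the main fit rest on the spread between pools within the 4 groups, estimated over all 16 libraries.

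Transcripts were named by a rule: in each direction the 8 members with the largest joined ratio, the 4 most abundant, the 3 nearest the ratio condition on either side, members sharing a number with another member, and those called between octet and paired worms.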

Additional observations from a re-analysis of the deposited data

Results flagged for a closer look

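Groups of 4 libraries were examined for the named transcripts, the share of RNA815_34533.2 and the library median shifts of the higher and lower sets. Of 140 such groups, 6 held a library far from the other 3, where chance marks about 1 in 20. RNA815_7833 stood at 15.6 CPM in isolated replicate 4, with 19.9 to 20.2 CPM in the others, and at 22.3 CPM in octet replicate 4, with 25.9 to 26.7 CPM in the others. RNA815_3177 stood at 7.94 CPM in joined replicate 2, the only joined library within the range of constant company, with 5.71 to 5.78 CPM in the others. RNA815_24035 stood at 2.48 CPM in isolated replicate 3, with 2.76 to 2.80 CPM in the others. RNA815_25459, which was not chosen, stood at 10.0 CPM in paired replicate 4, with 7.39 to 7.73 CPM in the others, and at 4.28 CPM in isolated replicate 4, with 5.21 to 5.29 CPM in the others.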

How the results depend on the processing

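The number of chosen transcripts, 67, was 38 with TMM and 30 with upper-quartile scaling, 29 at a mean of at least 10 CPM, 26 with joined ratios of 1.5 or 0.67, 3 with ratios of 2 or 0.5, and 22 when all 4 joined libraries had to reach the range of constant company. With 1 library left out it was 66 to 133, reached without isolated replicate 3, and 181 without joined and isolated replicate 2; fewer libraries make the conditions easier to meet. Without joined replicate 2 it was 115, and without isolated replicates 1, 2 and 4 it was 116, 117 and 112. Between octet and paired worms, 580 transcripts and 1 member were called. With the replicate block there were 2388 and 5, in a fit to the 8 libraries 8 and 0, with a quality weight per library 5421 and 13, and at an adjusted p under 0.01 there were 28 and 0. With 1 library left out the counts ran from 23 (without octet replicate 1) to 3998 (without paired replicate 4) and from 0 to 7; without paired replicate 4 and isolated replicate 3 they were 5144 and 9. The cause of these changes was not tested. Deviations of same-numbered octet and paired libraries had correlations of -0.01, -0.08, 0.10 and 0.39, and those of joined and isolated libraries -0.05, 0.10, 0.20 and -0.13. The numbers were not taken as pairs in the main fit, although the replicate block raised the calls. Whether replicate numbers mark a shared batch was not tested. RNA815_34533.2 kept its call in 22 alternatives and lost it in 5, with the same direction in each. The sum of RNA815_34533.1 and RNA815_34533.2, in which RNA815_34533.1 is the larger, had a log2 difference of 0.12. Depth limits the scarce members most, with as few as 9.90 estimated reads in a library.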
